A study of Sus scrofa with 32 samples.

Results

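The breed contrast in the semimembranosus (S) muscle, a large muscle of the ham, was examined over 16 of the 32 RNA-seq libraries of the series, which were all the S libraries: 8 from Pulawska (PUL) gilts and 8 from Polish Landrace (PL) gilts, 1 library per pig. The other 16 libraries were from the longissimus dorsi (LD) muscle of the same pigs and are used for values side by side. PUL is an indigenous Polish breed and PL a breed of high meat content. All gilts were labelled as 180 days old, untreated, kept at 1 test station under equal housing, fed ad libitum and starved before slaughter, and the study's methods state that they were unrelated and came from different farms, so that breed and farm of origin cannot be told apart. The study's methods have the pigs fed to a common body weight and the study treats slaughter age as a trait that varied, which the single age in the labels does not show, and the part of slaughter age in the contrast was not tested. The labels tag the PUL libraries with a high and the PL libraries with a low shear force, the reverse of the tenderness that the study describes, so the groups are named here by breed alone.

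Skeletal muscle consists mainly of long fibres filled with sarcomeres, whose nuclei no longer divide, while satellite cells, fibroblasts, fat cells, vessels, nerves and blood lie between them. In a growing pig the dividing cells of muscle are thus mononuclear cells, which may fuse with fibres or lay down the collagen matrix around them. Breeds selected for lean growth and local fatter breeds are compared because fibre type, stored fat, matrix and protein turnover all bear on growth and on the eating quality of pork.

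Summed counts ran from 13927385 to 24761853 per library in PUL and from 8821273 to 23034195 in PL, the lowest being that of PL pig 8, and the breeds overlapped in depth (p = 0.466 by a two-sided exact permutation test). Skeletal muscle actin (ACTA1) held 38365, 84445 and 106357 CPM (counts scaled to the size of the library, given here and below for the lowest, median and highest pig) in PUL and 54331, 69745 and 92994 in PL, and was the only 1 of 8 defining skeletal muscle markers that the table lists by symbol. Liver-type transcripts were present in several PUL libraries: the summed CPM of 10 hepatocyte markers was 1376 in PUL pig 5, 118 in pig 1, 102 in pig 4, 65.1 in pig 17, 56.1 in pig 2 and 22.4 to 26.5 in pigs 3, 13 and 16, against 9.39 to 32.7 in PL. A fit without PUL pigs 1 to 5, which earlier results of these data had set apart for such transcripts, is given below beside most of the counts and fold changes that it moves by over 1.5 times. The sum above does not divide the PUL pigs in that way, since pig 3 lay within the PL range and pig 17 above it. The fit keeps PUL pigs 13, 16 and 17 and was filtered anew, so its numbers of tested members differ. As pigs 1 to 5 were chosen for liver-type transcripts, a fall of such genes without them was set in advance. In bulk tissue, fewer cells of a type and less RNA per cell cannot be told apart.

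Of 10687 genes tested in S, 0 (0.0%) reached an adjusted p of 0.05 with a fold change of at least 1.3 in edgeR's quasi-likelihood test. At an unadjusted p under 0.05, 1252 genes (11.7%) were found, 677 (6.33%) higher in PUL and 575 (5.38%) higher in PL, and these shares are the background against which the gene lists are read below. With counts scaled to library size alone the split turned to 433 (4.05%) and 635 (5.94%). DESeq2 called 57 genes (0.533%) higher in PUL and 46 (0.43%) higher in PL, edgeR's exact test 33 (0.309%) and 23 (0.215%), and both together 28 (0.262%) and 23 (0.215%), 51 genes (0.477%) in all. On simulated counts, 22 of 174 DESeq2 calls and 15 of 164 exact test calls were false, against 8 of 145 by quasi-likelihood. The fold changes are log2 values of PL over PUL, so that a negative value means a higher level in PUL, and their median over all tested genes was 0.02. A lone value in brackets after a gene is this log2 fold change. Because no gene passed the adjusted threshold, "higher" below describes the values of these 16 libraries. Up to 4 genes per list were named by a rule on p, and the further members and the calpains CAPN1 and CAPN2 were picked with their values known. The adjusted p beside a gene is from the quasi-likelihood test with Benjamini-Hochberg adjustment over all 10687 genes. The SE beside it is not a fitted standard error. It is the absolute log2 fold change divided by the square root of that test's F statistic.

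**Figure D1:**
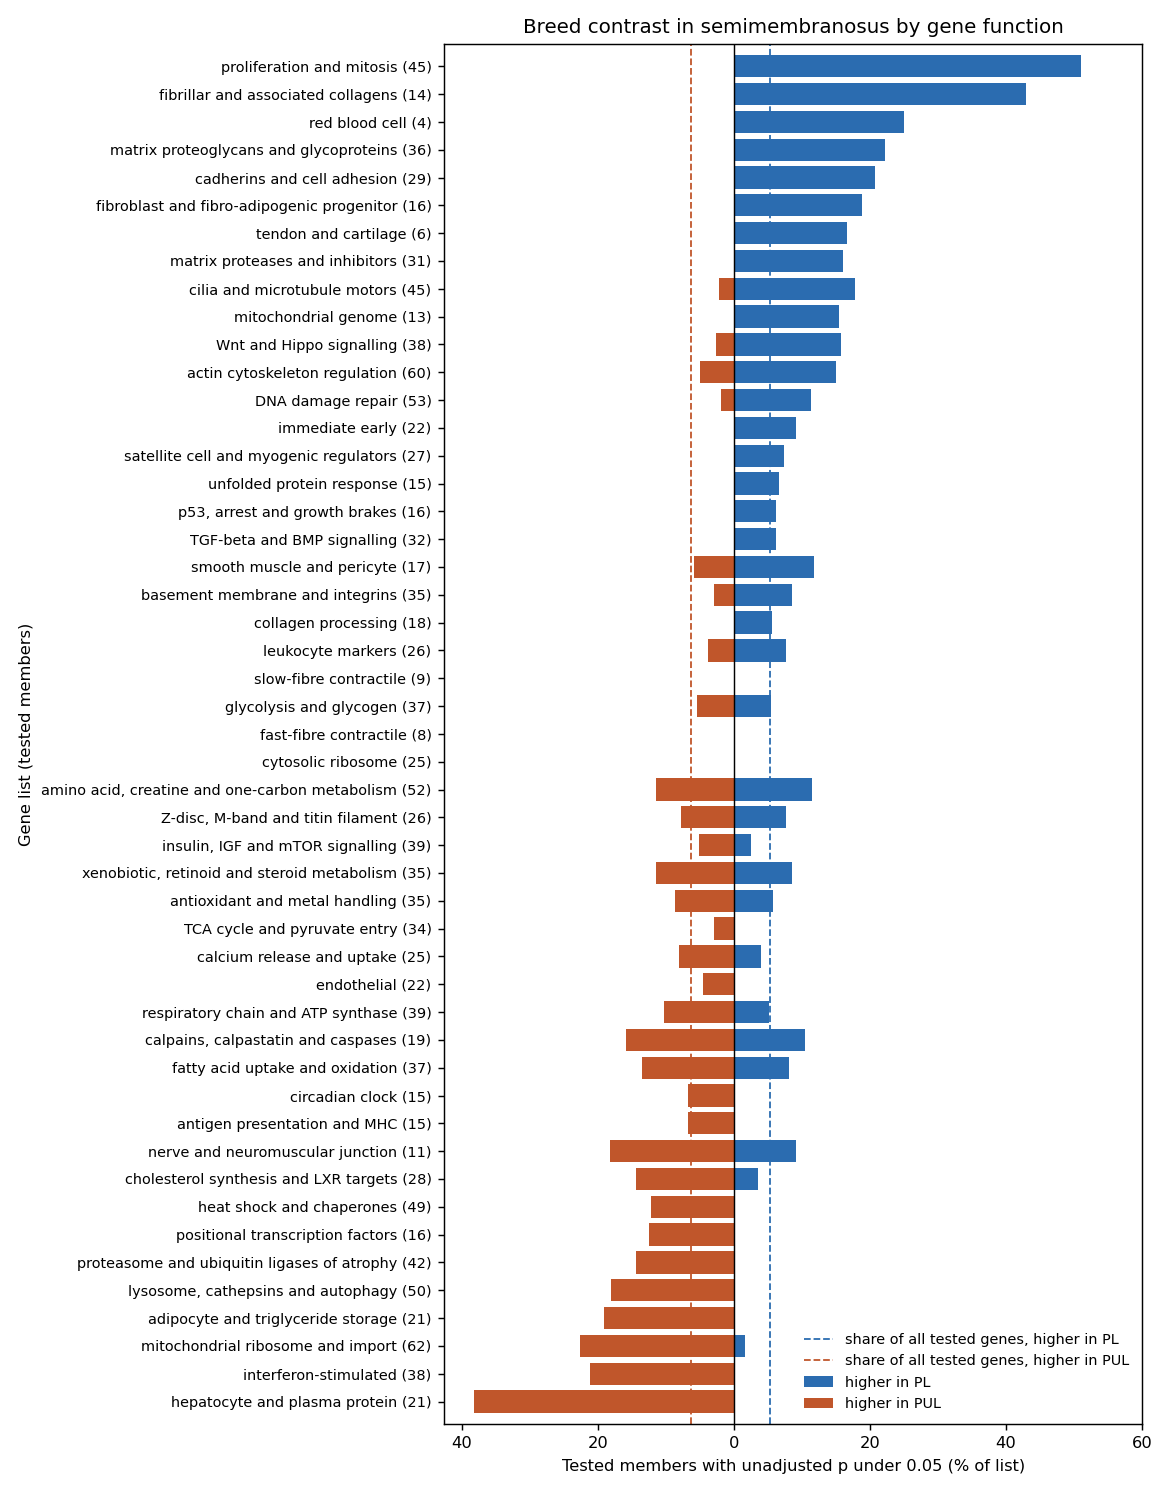
Share of the tested members of each of 49 gene lists (percent, horizontal axis) with an unadjusted p under 0.05, drawn to the left for genes higher in PUL and to the right for genes higher in PL, with dashed lines at the shares of all tested genes (6.33% and 5.38%). Proliferation and mitosis stood farthest to the PL side with 23 of 45 genes, and hepatocyte and plasma proteins farthest to the PUL side with 8 of 21.

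Few genes separated the breeds completely. The 8 values of each breed did not overlap in 4 genes higher in PUL (0.0374% of the tested genes) and 5 higher in PL (0.0468%). Those higher in PUL were APOD, an apolipoprotein with the smallest adjusted p of all (0.0652), TRNAU1AP and 2 entries without a symbol (ENSSSCG00000022002 and ENSSSCG00000028809). TRNAU1AP, a protein that helps to build selenocysteine into selenoproteins, stood at 22.9, 25.9 and 29.3 CPM in PUL and 15.3, 18 and 22.4 in PL, a log2 fold change of -0.47 (SE 0.11, adjusted p = 0.195). The lowest PUL pig thus exceeded the highest PL pig. In PL, the separated genes were CCDC25, CXorf38, BTBD10, DNAH11 and the entry ENSSSCG00000011634. CCDC25, a coiled-coil protein, stood at 11.6, 14.4 and 18.2 CPM in PUL and 18.4, 22.5 and 26.5 in PL, a log2 fold change of 0.66 (SE 0.12, adjusted p = 0.119), and its value in LD was 0.56. CXorf38, an uncharacterised gene, gave 2.73, 3.19 and 3.76 CPM in PUL and 4.28, 4.82 and 5.73 in PL, a log2 fold change of 0.58 (SE 0.14, adjusted p = 0.195). The spread within each breed was narrow for both, and their values without PUL pigs 1 to 5 were close to those with them (0.60 and 0.48). BTBD10 (BTB domain protein) had the smaller log2 fold change of 0.37 (SE 0.12, adjusted p = 0.277), with 8.40 to 13.2 CPM in PUL and 13.4 to 15.9 in PL.

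Among the 12 genes with a symbol and the smallest p on the PUL side that the study does not name, 4 were liver-type transcripts or held their difference mainly in pigs 1 to 5. Entries without a symbol were left out of this ranking, and some had a smaller p, such as ENSSSCG00000028809. ALB (serum albumin) reached 905 CPM in PUL pig 5 and stood between 0.156 and 1.58 in PL, and without PUL pigs 1 to 5 its log2 fold change turned from -7.37 to 1.97 (-4.49 without pig 5 alone). F2 (prothrombin) went from -2.38 to -0.73 (-1.29 without pig 5 alone), HPN (hepsin, a serine protease of liver) from -1.64 to -0.97, and ANPEP (aminopeptidase N) from -2.52 to -0.79 (-1.62 without pig 1 alone). PON3, a lactonase of the paraoxonase family, kept more of its difference without PUL pigs 1 to 5 than these 4 did. It was listed at 0, 3.81 and 9.95 CPM in PUL and 0, 0.412 and 1.11 in PL, a log2 fold change of -3.01 (SE 0.70, adjusted p = 0.195). The value was -2.42 without PUL pigs 1 to 5 and -2.81 with the hepatocyte level as a covariate. In LD it was -2.73, which does not set it apart. ALB (-5.16), ANPEP (-1.50) and HPN (-1.06) were also higher in PUL in LD. The hepatocyte and plasma protein list had 8 of 21 genes higher in PUL there at an unadjusted p under 0.05 (background 3.51%). For PON3 in S, PUL pig 4 had a count of 0, and the 7 other PUL pigs exceeded all PL pigs.

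The others were genes of metabolism and of protein and membrane traffic. SLC38A3, a glutamine transporter, stood at 17.3, 20.7 and 40.02 CPM in PUL and 10.3, 13.9 and 20.4 in PL, a log2 fold change of -0.80 (SE 0.20, adjusted p = 0.204). TTC19, a factor of respiratory complex III, gave 12.6, 16.6 and 19.6 CPM in PUL and 5.98, 10.8 and 13.4 in PL, a log2 fold change of -0.66 (SE 0.17, adjusted p = 0.204). THTPA, which hydrolyses thiamine triphosphate, gave 11.3, 13.98 and 19.5 CPM in PUL and 7.05, 9.64 and 11.6 in PL, a log2 fold change of -0.58 (SE 0.14, adjusted p = 0.204). In these 3 genes 4, 5 and 7 of the 8 PUL pigs exceeded every PL pig, so the ranges overlapped. TMUB1 (a ubiquitin-like membrane protein), MAGIX (a PDZ domain protein) and PPFIBP2 (liprin beta 2) had log2 fold changes of -0.57, -0.67 and -0.53, and the first of these was 0.08 in LD. THTPA and PPFIBP2 were -0.38 and -0.32 without PUL pigs 1 to 5.

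On the PL side, the 12 genes, again among those with a symbol, comprised 3 of the cell cycle (PBK, UHRF1 and DLGAP5, described below) and genes of several other functions. EMC2, a subunit of the complex that inserts membrane proteins into the endoplasmic reticulum, stood at 42.5, 44.8 and 54.8 CPM in PUL and 50.1, 63.6 and 78.3 in PL, a log2 fold change of 0.44 (SE 0.10, adjusted p = 0.195). RTCA, which modifies RNA ends, gave 12.6, 13.7 and 19.9 CPM in PUL and 18.5, 21.1 and 26.5 in PL, a log2 fold change of 0.51 (SE 0.13, adjusted p = 0.204). WDR11, a WD repeat protein of vesicle traffic, gave 2.11, 2.92 and 3.66 CPM in PUL and 3.28, 4.74 and 6.07 in PL, a log2 fold change of 0.67 (SE 0.17, adjusted p = 0.204). In each of them 5 or 6 PL pigs exceeded the highest PUL pig. NIBAN1, a stress-induced protein, was at 0.323, 0.508 and 1.91 CPM in PUL and 1.16, 1.78 and 2.93 in PL (log2 fold change 1.39, SE 0.36, adjusted p = 0.204). MYZAP, a junction protein of the heart's intercalated disc, was at 0.508, 0.955 and 1.68 CPM in PUL and 1.41, 2.201 and 4.098 in PL (log2 fold change 1.11, SE 0.28, adjusted p = 0.204), and LRRN3, a leucine-rich repeat membrane protein, at 0.235, 0.795 and 1.11 in PUL and 0.83, 2.05 and 3.11 in PL (log2 fold change 1.27, SE 0.33, adjusted p = 0.204). These 3 genes had low counts, single pigs of the breeds overlapped in all of them, and MYZAP was 1.67 without PUL pigs 1 to 5.

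**Figure D2:**
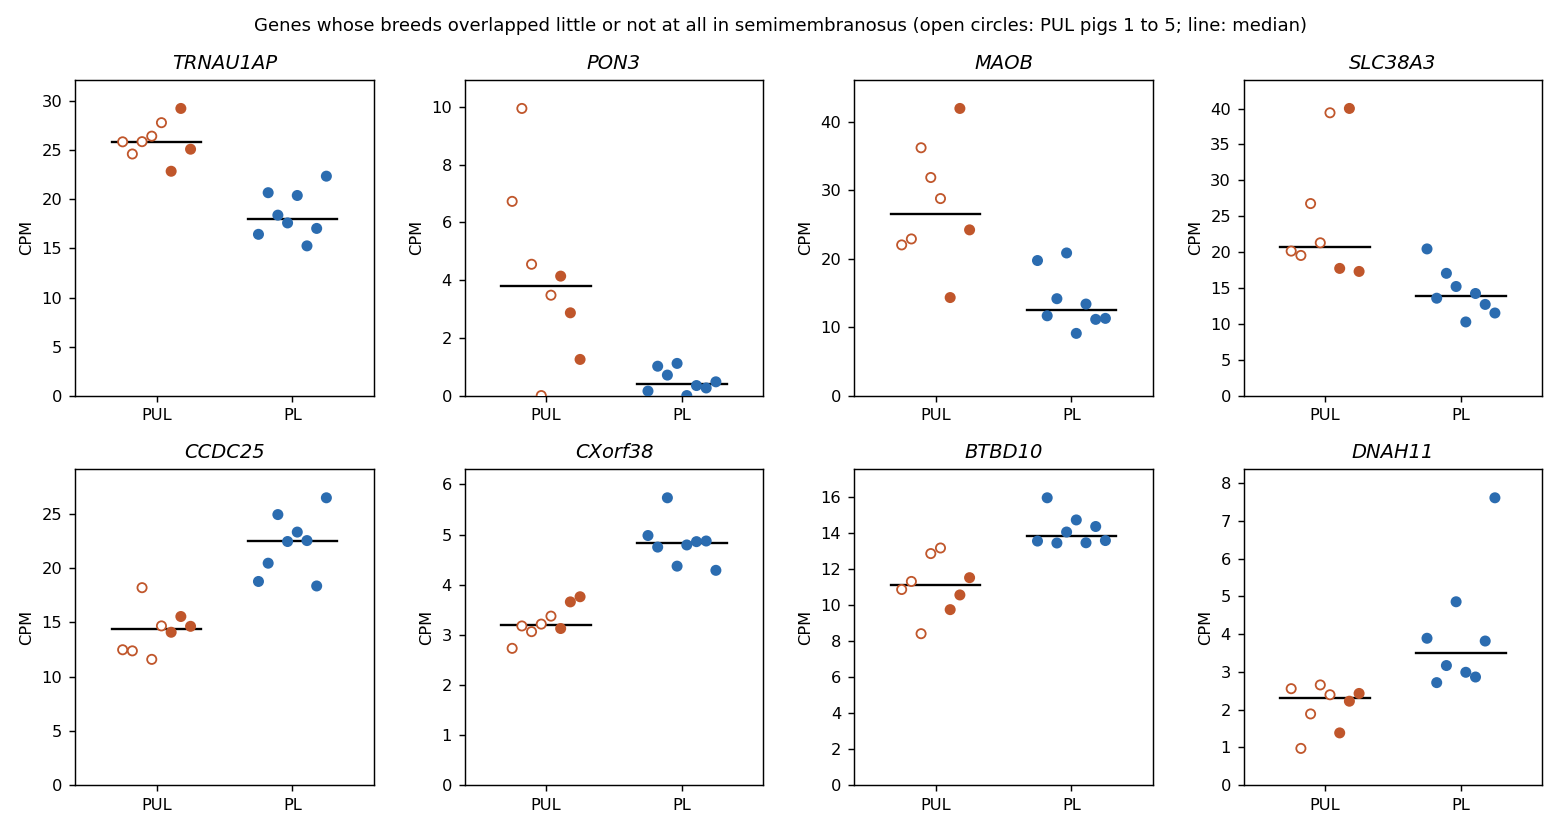
CPM (vertical axis, from 0) of 8 genes in each S library by breed, with 4 genes higher in PUL above and 4 higher in PL below. Points are pigs, open circles PUL pigs 1 to 5 and lines medians, and among the 8 only TRNAU1AP, CCDC25, CXorf38, BTBD10 and DNAH11 show no overlap.

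Cell division genes had the highest share of the 49 lists. Of 45 tested genes of proliferation and mitosis, 23 had an unadjusted p under 0.05 and a higher level in PL and 0 a higher level in PUL, against backgrounds of 5.38% and 6.33%. The list had 73 entries in the table, of which the filter left 45. That filter asks for enough counts in as many libraries as 1 breed holds. A gene of low counts, such as UHRF1, may thus have passed through PL, where it was higher. The part of the filter in this share was not tested. Other lists were cut as well. The filter left 29 of 54 adhesion entries, 45 of 72 of cilia and motors and 21 of 71 of hepatocyte and plasma proteins. Its part in the shares of those and other lists was not tested either. The median log2 fold change of the proliferation list was 0.66, and 41 of 45 members were above 0. PBK, a kinase of mitotic cells, stood at 0.314, 0.738 and 1.103 CPM in PUL and 0.694, 1.92 and 2.86 in PL, a log2 fold change of 1.34 (SE 0.33, adjusted p = 0.204). UHRF1, which maintains DNA methylation through replication, stood at 0.161, 0.339 and 0.799 CPM in PUL and 0.676, 0.996 and 1.81 in PL (log2 fold change 1.38, SE 0.35, adjusted p = 0.204). In both genes 6 of 8 PL pigs exceeded the highest PUL pig. The UHRF1 value was 0.63 without PUL pigs 1 to 5 and that of PBK 1.14. DLGAP5, a protein of the mitotic spindle, gave 0.0538, 0.397 and 0.726 CPM in PUL and 0.173, 1.17 and 2.22 in PL (log2 fold change 1.69, SE 0.43, adjusted p = 0.204), and CHEK1, the kinase of the replication checkpoint, 0.783, 2.06 and 3.42 in PUL and 2.08, 4.46 and 5.55 in PL (log2 fold change 1.13, SE 0.29, adjusted p = 0.204). PL pig 14 was the lowest PL pig for PBK, DLGAP5 and CHEK1 and lay within the PUL range there.

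The remaining 19 were spread over the cycle. They included licensing and replication factors (MCM2, MCM4, TIPIN, HELLS, CDCA7 and E2F1, from 0.66 to 0.90), the regulators of entry into mitosis CDK1 (1.12) and CCNB1 (1.37), and topoisomerase TOP2A (1.24). Kinesins and kinetochore proteins made up most of the rest, with KIF11 (1.64), KIF20A (1.16), KIF23 (0.95), KIF20B (0.71), NUF2 (1.01), SPC25 (0.65) and CENPU (0.90), beside UBE2C (1.08), ANLN (0.63) and CKAP2L (0.75). As a level over the list (mean of log2(CPM + 0.5)), PUL pigs ran from 0.76 to 1.37 and PL pigs from 1.11 to 1.83, so that all PL pigs but pig 14 exceeded the highest PUL pig. Without PUL pigs 1 to 5 the median was 0.61 with 10 of 54 members under 0.05 (background 7.63%). The values of 10 of the 23 genes moved by over 1.5 times in that fit, among them MCM2 (0.23), MCM4 (0.11), E2F1 (0.11), CDCA7 (0.35), CKAP2L (0.16), CDK1 (0.62) and CCNB1 (0.73). TIPIN was 0.16 without PL pig 8. With the hepatocyte level of each pig as a covariate the list median was 0.74. In LD, where 3.64% of all genes were higher in PL at this p, the median was 0.57 with 12 of 45. Of 27 tested satellite cell and myogenic regulators 2 were higher in PL at an unadjusted p under 0.05 (NOTCH2, 1.11, or 0.72 without PL pig 8, and its ligand DLL1, 0.63), and the list median was 0.04, or 0.29 without PUL pigs 1 to 5, where DLL1 was 0.37. That count was 4 of 28 without PUL pig 16 (background 4.78%).

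**Figure D3:**
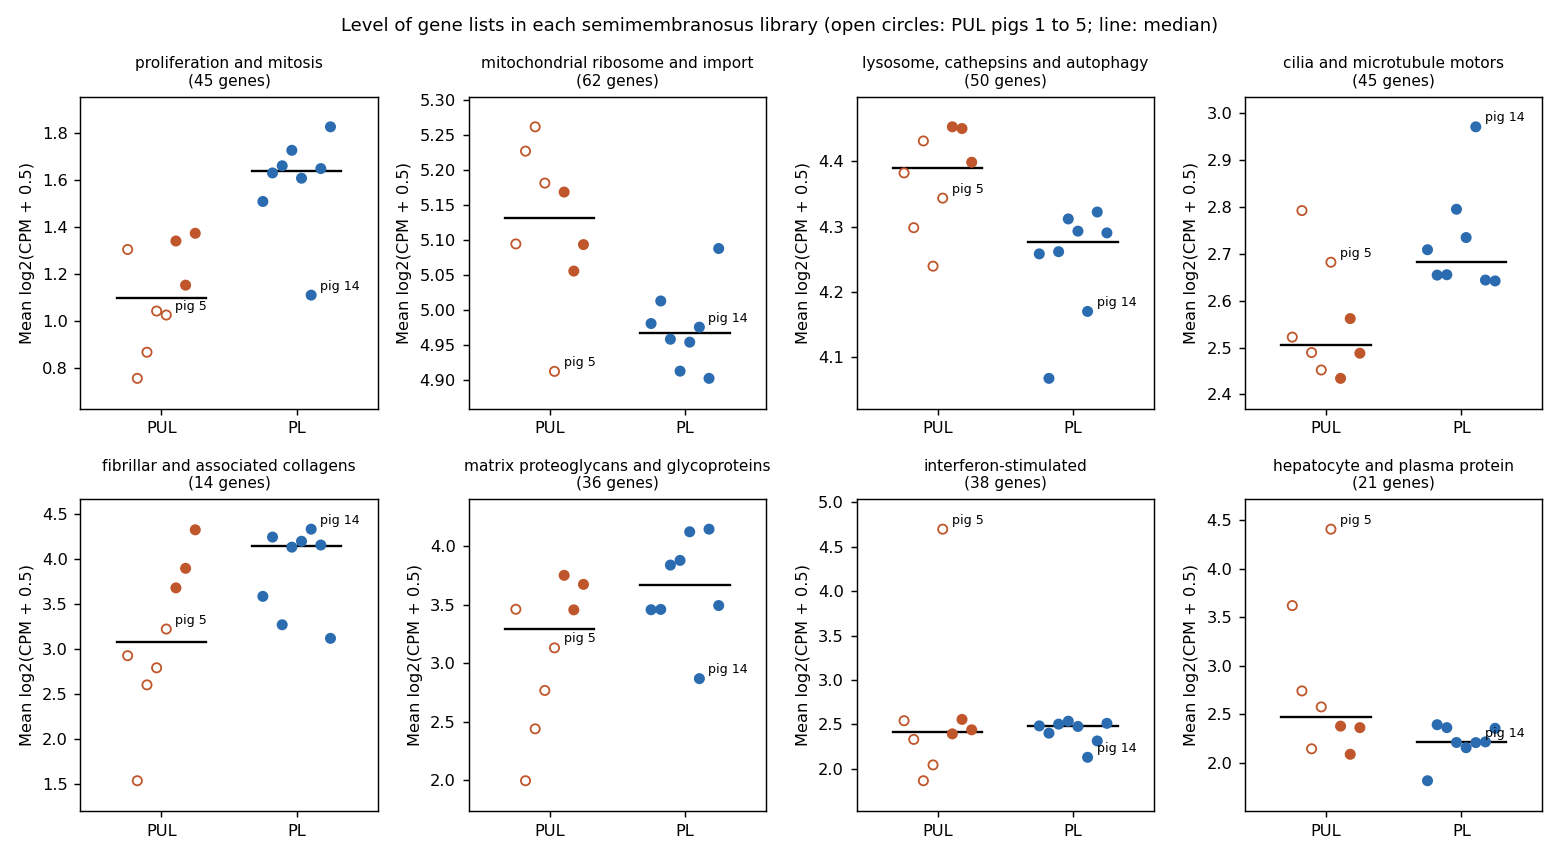
Level of 8 gene lists (mean of log2(CPM + 0.5) over the tested members, vertical axis) in each S library by breed, with pigs as points, PUL pigs 1 to 5 as open circles, medians as lines and PUL pig 5 and PL pig 14 named. The PL level of proliferation genes (median 1.64) lay above that of PUL (1.097), and all PL pigs but pig 14 lay above the highest PUL pig, whereas the interferon list differed through PUL pig 5 (4.70).

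DNA repair and microtubule genes leaned the same way in smaller numbers. Of 53 DNA repair genes, 6 were higher in PL at an unadjusted p under 0.05 and 1 in PUL (NEIL2, a base excision glycosylase, -0.84). HELQ, a helicase of crosslink repair, stood at 2.37, 2.47 and 3.31 CPM in PUL and 3.28, 3.87 and 5.95 in PL, a log2 fold change of 0.66 (SE 0.17, adjusted p = 0.204), with all PL pigs but pig 8 above the highest PUL pig. FANCD2 and FANCM of the Fanconi anaemia pathway had values of 0.98 and 0.90, the checkpoint kinase ATR 0.48, the uracil glycosylase UNG 0.35 and the polymerase POLN 0.35. The count in PL was 12 of 53 without PUL pigs 1 to 5 (background 7.63%) and 10 of 53 without PUL pig 5 (background 8.95%), and the list median went from 0.13 to 0.31 in the first of these fits, where ATR was 0.95 and FANCM 0.56. Among 45 genes of cilia and microtubule motors, 8 were higher in PL and 1 in PUL (KIF13B, -0.41). DNAH11, a dynein heavy chain of motile cilia, stood at 0.968, 2.31 and 2.65 CPM in PUL and 2.71, 3.49 and 7.62 in PL without overlap (log2 fold change 0.96, SE 0.25, adjusted p = 0.204). KIF3B, the kinesin of intraflagellar transport, gave 1.16, 1.86 and 2.44 CPM in PUL and 2.04, 2.83 and 6.69 in PL (log2 fold change 0.97, SE 0.27, adjusted p = 0.219). The carriers of that transport IFT80 (0.85), IFT74 (0.45) and WDR19 (0.46), the centrosomal SSX2IP (1.12) and the dynein subunits DYNC1LI1 (0.37) and DYNC1I2 (0.27) completed the 8. The list median was 0.24 in S and 0.02 in LD.

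**Figure D4:**
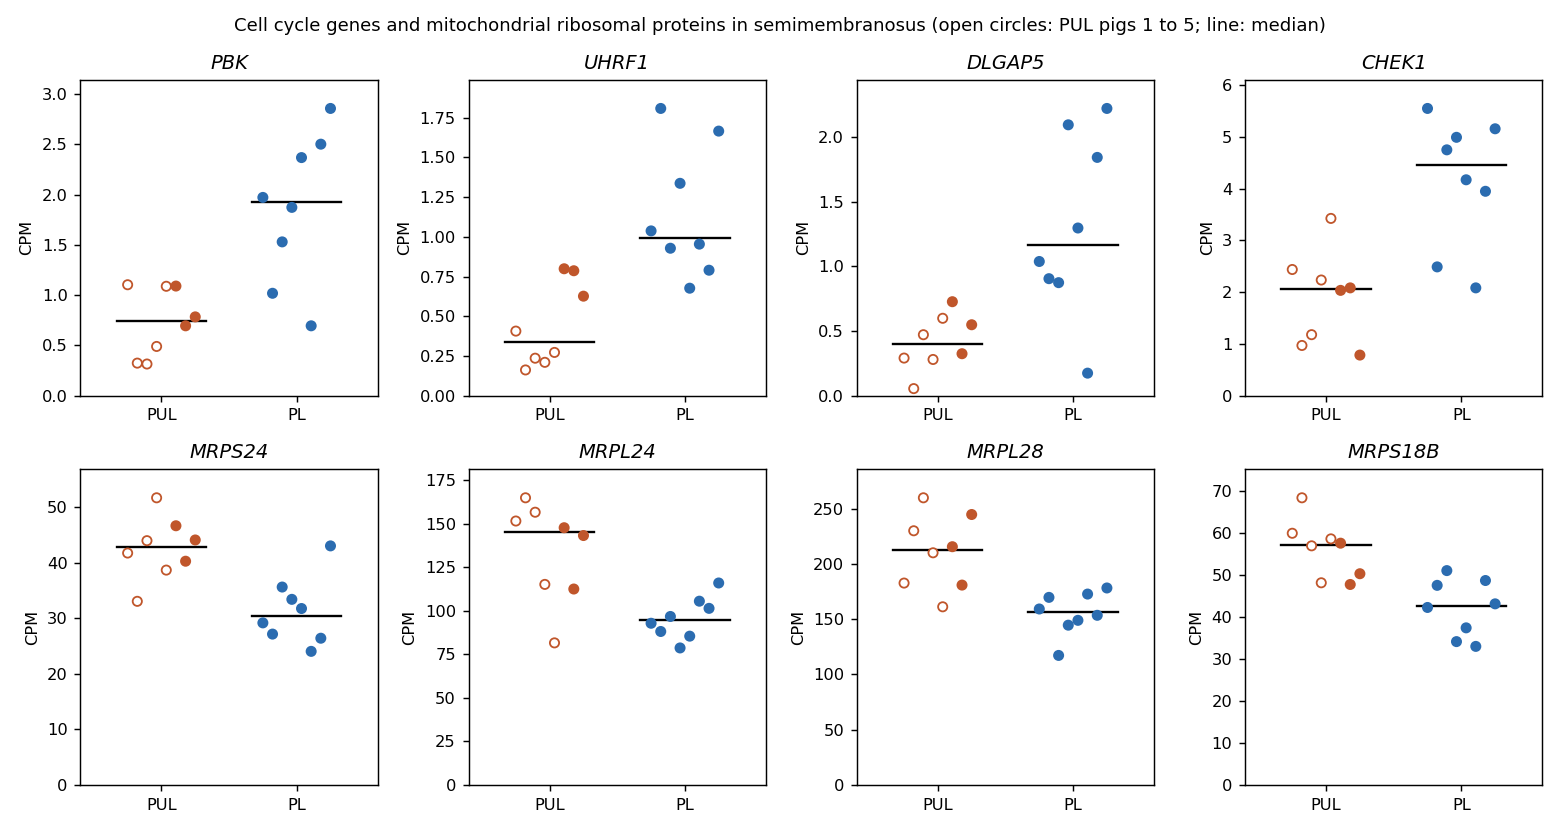
CPM (vertical axis, from 0) of 4 cell cycle genes (upper panels) and 4 mitochondrial ribosomal protein genes (lower panels) in each S library by breed, with pigs as points, PUL pigs 1 to 5 as open circles and medians as lines. The cell cycle genes had the higher medians in PL and the ribosomal protein genes in PUL, and the ranges of the breeds overlap in each panel.

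Genes of mitochondrial translation stood on the PUL side. Of 62 tested genes of the mitochondrial ribosome and of protein import, 14 were higher in PUL and 1 (MRPL13, 0.39) in PL at an unadjusted p under 0.05, against 6.33% and 5.38%. The list median was -0.15, with 47 of 62 members below 0. MRPL28 stood at 161, 213 and 259.8 CPM in PUL and 117, 156 and 178 in PL, a log2 fold change of -0.42 (SE 0.12, adjusted p = 0.221), with all PUL pigs but pig 5 above the highest PL pig. MRPS24 gave 33.03, 42.8 and 51.7 CPM in PUL and 24.03, 30.4 and 43.01 in PL (log2 fold change -0.43, SE 0.12, adjusted p = 0.219), MRPL24 81.5, 145 and 165 in PUL and 78.6, 94.8 and 116 in PL (log2 fold change -0.47, SE 0.14, adjusted p = 0.219) and MRPS18B 47.7, 57.2 and 68.3 in PUL and 32.96, 42.7 and 51 in PL (log2 fold change -0.39, SE 0.12, adjusted p = 0.247). The differences were small. Among the 14 were 11 proteins of both ribosomal subunits, the import factors TOMM7 (-0.34) and TIMM50 (-0.25) and TWNK, the helicase of mitochondrial DNA (-0.56), which had the widest difference (-0.29 without PUL pigs 1 to 5). As a list level, 6 of 8 PUL pigs exceeded the highest PL pig, and PUL pigs 5 and 16 stood among the PL pigs. Without PUL pigs 1 to 5 the count was 10 of 62 (background 6.45%), and with library size alone 7 (background 4.05%). In LD it was 1 of 62, with a median of -0.02, although the difference between the muscles was not tested for the list.

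Other mitochondrial genes did not follow in one direction. The 39 nuclear genes of the respiratory chain and ATP synthase had a median of -0.10, with 4 higher in PUL (NDUFA11, NDUFS6, NDUFB10 and NDUFB7, all of complex I, from -0.39 to -0.24) and 2 higher in PL (UQCRC2 of complex III, 0.43, and NDUFA6, 1.64). This NDUFA6 entry, also of complex I, had 2.58, 6.73 and 14.05 CPM in PUL and 4.68, 10.5 and 78.3 in PL, while another entry of the same name had a log2 fold change of -0.48, and reads may have been divided between them. The entry with the higher values was 1.03 without PL pig 15, which held 78.3 CPM. The count in PUL ran from 2 without PUL pig 3 (background 5.13%) or pig 17 (5.63%) to 7 without PL pig 14 (9.42%), and NDUFB10 was -0.36 without PUL pigs 1 to 5. Of 34 genes of the TCA cycle and pyruvate entry, 1 was under 0.05, the isocitrate dehydrogenase subunit IDH3G (-0.40), on the PUL side. Without PL pig 14, 4 of 34 were so, when the share of all genes was also higher (background 9.42%, against 6.33% with all pigs). All 13 protein genes of the mitochondrial genome had positive values (median 0.42), yet 2 of them had an unadjusted p under 0.05. Of these, ATP8 had 48.9, 94.2 and 180.1 CPM in PUL and 11.1, 148 and 1478 in PL (log2 fold change 1.67, SE 0.64, adjusted p = 0.346), and ND4L 40.8, 62.04 and 83.3 in PUL and 8.501, 94.3 and 510.0 in PL (log2 fold change 1.17, SE 0.50, adjusted p = 0.382). Both reading frames overlap a neighbouring gene (ATP6 and ND4), so reads may have been shared. PL pig 8 held the highest value of both and PL pig 14 the lowest, and without PL pig 8 the values were 0.47 and 0.41. The level of the list ran from 9.31 to 10.61 in PUL and from 6.94 to 11.88 in PL, where PL pig 14 was the minimum and the other 7 lay at or above 10.1. Without PL pig 14 the list median was 0.60, with 6 of 13 genes higher in PL at an unadjusted p under 0.05 and 0 in PUL (backgrounds 7.48% and 9.42%), and without PUL pigs 1 to 5, 0 of 13 were under 0.05 in either direction by the quasi-likelihood test (median 0.62).

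Serine synthesis was a compact group on the PL side, singled out after the values were seen. Serine is made from a glycolytic intermediate by PHGDH, PSAT1 and PSPH in turn, and feeds the folate cycle that supplies building blocks for nucleotides. PSAT1 stood at 0.161, 0.405 and 0.812 CPM in PUL and 0.382, 1.63 and 4.41 in PL, a log2 fold change of 1.98 (SE 0.47, adjusted p = 0.204), and 5 PL pigs exceeded the highest PUL pig. PHGDH gave 0.699, 5.67 and 17.3 CPM in PUL and 3.74, 8.11 and 53.8 in PL (log2 fold change 1.39, SE 0.62, adjusted p = 0.3996), and PSPH 4.41, 9.03 and 12.4 in PUL and 7.91, 14.03 and 31.2 in PL (log2 fold change 0.84, SE 0.27, adjusted p = 0.273). The breeds overlapped in both, with 3 and 4 PL pigs beyond the PUL range. ALDH1L2, a mitochondrial folate enzyme, gave 7.48, 11.3 and 14.1 CPM in PUL and 13.5, 17.97 and 23.2 in PL (log2 fold change 0.71, SE 0.16, adjusted p = 0.195), with 6 PL pigs beyond the PUL range, and MTHFD1L a log2 fold change of 0.69. The cytosolic folate enzyme MTHFD1 was near 0 (0.06), and ALDH1L1 was at -1.003. In LD the values of PSAT1, PHGDH, PSPH and ALDH1L2 were 1.61, 1.08, 0.96 and 0.58, and without PUL pigs 1 to 5 they were 2.12, 0.67, 0.57 and 0.52 in S, while MTHFD1L was at 0.15. PHGDH was 0.87 without PL pig 18. Over the whole list of 52 genes of amino acid, creatine and one-carbon metabolism, 6 were higher in each breed, the sixth in PL being the arginase ARG2 (1.24, or 0.61 without PUL pigs 1 to 5). The count in PL was 3 without PUL pig 3 (background 4.17%) or PL pig 10 (4.96%). Those higher in PUL were MAOB, which oxidises amines (14.3, 26.5 and 41.9 CPM in PUL and 9.08, 12.5 and 20.8 in PL, log2 fold change -0.98, SE 0.21, adjusted p = 0.159), the creatine genes GATM (-2.57), SLC6A8 (-0.45) and CKB (-0.79), the urea cycle enzyme ASS1 (-2.64) and BCKDK (-0.39), a kinase that restrains breakdown of branched amino acids. GATM and ASS1 are also abundant in liver or kidney, and without PUL pigs 1 to 5 they were -0.46 and -0.10 (-1.51 and -1.46 without pig 1 alone). SLC6A8 was -0.25 in that fit, and CKB -0.49 without PUL pig 1.

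Lipid genes gave single members with a small p. Of 21 adipocyte and triglyceride storage genes, 4 were higher in PUL and 0 in PL at an unadjusted p under 0.05. PNPLA2, the first lipase of triglyceride breakdown, stood at 10.4, 36.3 and 47.8 CPM in PUL and 11.96, 19.1 and 31.1 in PL, a log2 fold change of -0.75 (SE 0.25, adjusted p = 0.283), 6 PUL pigs exceeding the highest PL pig and PUL pig 1 lying below the lowest. LIPE, the lipase that acts next, had a log2 fold change of -1.34 (SE 0.35, adjusted p = 0.204). PLIN5, a coat protein of lipid droplets at mitochondria, gave 2.04, 7.54 and 13.6 CPM in PUL and 0.873, 3.09 and 8.67 in PL (log2 fold change -0.94, SE 0.45, adjusted p = 0.425), a difference of -0.26 without PUL pigs 1 to 5. RBP4, a retinol carrier made by fat and liver, was highest in PUL pig 5 (18.3 CPM), and its value of -2.88 became -1.57 without that pig and -1.51 without PUL pigs 1 to 5. In the latter fit 6 of 23 genes were higher in PUL (background 6.45%), and the list median was -0.38 in place of -0.11. The summed CPM of the adipocyte markers in the table (2 of 5) ran from 1.09 to 25.8 in PUL and from 0.467 to 13.6 in PL, and the breeds overlapped. The desaturase SCD was at 7.48, 29.8 and 302 CPM in PUL and 15.1, 54.2 and 306 in PL, with a log2 fold change of -0.11 (SE 0.72, adjusted p = 0.967).

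Fatty acid oxidation genes were divided, 5 of 37 being higher in PUL and 3 in PL. The PUL side held peroxisomal enzymes. ACOX3, a peroxisomal oxidase of branched acids, stood at 4.75, 9.53 and 15.7 CPM in PUL and 1.75, 4.22 and 9.76 in PL, a log2 fold change of -1.07 (SE 0.33, adjusted p = 0.243), and ACAA1, the peroxisomal thiolase, at 20.6, 27.4 and 46.9 in PUL and 15.04, 20.8 and 27.9 in PL (log2 fold change -0.55, SE 0.19, adjusted p = 0.3002). ACOX2 (-0.43), the carnitine acetyltransferase CRAT (-0.47) and the receptor PPARD (-0.58) completed the 5. On the PL side CPT1A, the gate of mitochondrial fatty acid import, had 15.6, 17.7 and 25.9 CPM in PUL and 19.7, 22.6 and 231 in PL (log2 fold change 1.33, SE 0.51, adjusted p = 0.344), where PL pig 8 alone reached 231, and ACSL3 and DECR1 had 0.35 and 0.32. Without PL pig 8 the CPT1A value was 0.17. In the fit without PUL pigs 1 to 5, 3 of 38 genes were higher in PUL and 6 in PL (backgrounds 6.45% and 7.63%), with ACOX2 at -0.17 and ACSL3 at 0.65. The count in PUL was also 3 without PUL pig 3 (background 5.13%), PL pig 9 (4.68%), PL pig 10 (5.19%) or PL pig 12 (4.85%). Of 28 genes of cholesterol synthesis and liver X receptor targets, 4 were higher in PUL. They were APOD, the squalene synthase FDFT1 (-0.37) and both liver X receptors, NR1H3 (21.5, 34.4 and 52.02 CPM in PUL and 18.9, 22.6 and 25.7 in PL, log2 fold change -0.63, SE 0.16, adjusted p = 0.204) and NR1H2 (-0.36). The gene higher in PL was HMGCS1, an early enzyme of sterol synthesis (log2 fold change 0.53, SE 0.16, adjusted p = 0.237). The count of 4 became 2 without any 1 of PUL pigs 2, 3, 4 and 16 and PL pigs 7, 9 and 15 (backgrounds from 4.68% to 6.57%). FDFT1 was -0.12 without PUL pigs 1 to 5. The medians of both lists were near 0 (-0.03 and -0.05) and changed sign with counts scaled to library size alone.

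Genes of lysosomes and autophagy leaned to PUL. Of 50 genes of lysosomes, cathepsins and autophagy, 9 (18%) were higher in PUL at an unadjusted p under 0.05 and 0 in PL, with a list median of -0.13. MAP1LC3A, the protein that coats autophagosomes, stood at 85.6, 151 and 211 CPM in PUL and 78.7, 90.1 and 129 in PL, a log2 fold change of -0.62 (SE 0.17, adjusted p = 0.207). ULK2, a kinase that starts autophagy, gave 20.1, 40.2 and 70.6 CPM in PUL and 13.4, 25.1 and 37.9 in PL (log2 fold change -0.70, SE 0.24, adjusted p = 0.2995), and its partner ATG13 9.296, 10.7 and 13.9 in PUL and 5.86, 8.49 and 11.7 in PL (log2 fold change -0.37, SE 0.14, adjusted p = 0.338). The breeds overlapped in each of these. The receptor SQSTM1 (-0.35), the LC3 relative GABARAPL2 (-0.23), the protease ATG4D (-0.52), LAMP1 of the lysosomal membrane (-0.41), cathepsin C (CTSC, -0.61) and the cystatin CST6, an inhibitor of cathepsins (-0.76), made up the rest. As a list level, 6 of 8 PUL pigs exceeded the highest PL pig. Without PUL pigs 1 to 5 the count was 7 of 50 (background 6.45%) and with library size alone 5 (background 4.05%). ATG4D was -0.21 in the former.

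Of 42 genes of the proteasome and the ubiquitin ligases of atrophy, 6 were higher in PUL and 0 in PL at an unadjusted p under 0.05. The list median of -0.03 turned to 0.04 with library size alone and to 0.09 without PUL pigs 1 to 5. In LD 0 of 42 were under 0.05 in either direction by the quasi-likelihood test. The lid and ubiquitin receptor subunits PSMD3, PSMD4 and PSMD13 had values of -0.40, -0.42 and -0.24, the ligases NEDD4L and STUB1 -0.48 and -0.37, and ubiquitin itself (UBB) -0.38. UBB is a multigene family with repeated units, so its count is less certain. PSMD3 stood at 122, 204 and 218 CPM in PUL and 110.1, 138 and 176 in PL (log2 fold change -0.40, SE 0.14, adjusted p = 0.292), with 6 PUL pigs beyond the PL range, and PSMD13 was -0.37 without PUL pigs 1 to 5. Calpains, the calcium proteases linked to tenderness after slaughter, gave CAPN1 at 48.9, 91.1 and 134 CPM in PUL and 57.8, 67.2 and 149 in PL (log2 fold change -0.26, SE 0.23, adjusted p = 0.674), CAPN2 at a log2 fold change of 0.17 (SE 0.12, adjusted p = 0.56) and the muscle calpain CAPN3 at -0.40 (SE 0.18, adjusted p = 0.397). Neither CAPN1 nor CAPN2 had an unadjusted p under 0.05. In the list of 19 calpains, caspases and their regulators, 3 were higher in PUL (CAPN3, CAPN15, -0.57, and the death effector BAK1, -0.35, with CAPN3 at -0.25 without PUL pigs 1 to 5) and 2 in PL (APAF1 and BIRC3, an inhibitor of apoptosis, 0.25). The cytosolic ribosome list had 0 of 25 genes under 0.05 in either direction by the quasi-likelihood test, although 21 of 25 values were below 0 (median -0.13), and its level ran from 9.10 to 9.91 in PUL and from 8.57 to 9.59 in PL.

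Chaperone genes leaned to PUL with pigs 1 to 5 included. Of 49 genes, 6 (12.2%) were higher in PUL at an unadjusted p under 0.05 and 0 in PL, with a median of -0.19. Without PUL pigs 1 to 5 the counts were 0 in PUL and 2 in PL (backgrounds 6.45% and 7.63%) and the median 0.07. HSP90AA1, the inducible HSP90, stood at 443, 966 and 2939.8 CPM in PUL and 433, 612 and 712 in PL (log2 fold change -0.87, SE 0.32, adjusted p = 0.324), with PUL pig 2 highest. Its co-chaperones STIP1 (130.4, 244 and 365 CPM in PUL, 89.8, 153 and 172 in PL, log2 fold change -0.67, SE 0.21, adjusted p = 0.244) and AHSA1 (-0.52) and the heat shock factor HSF1 (-0.52) had the same direction, as did the small heat shock protein HSPB6 (-0.47) and FKBP5, a glucocorticoid-induced HSP90 partner (-1.61). STIP1 was -0.37, HSP90AA1 -0.16, AHSA1 -0.18 and FKBP5 -0.70 without these 5 pigs. Without PUL pig 2 alone HSP90AA1 was -0.44, AHSA1 -0.34 and FKBP5 -1.03. The count in PUL was higher when other single pigs were left out, with 14 without PUL pig 16 (background 6.57%), 11 without pig 17 (5.63%) and 10 without pig 5 (8.14%) or PL pig 14 (9.42%).

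The contractile genes that could be tested did not separate the breeds with all 16 libraries. The fast-fibre and slow-fibre lists held 16 symbols each, of which 8 and 9 were tested. The myosin heavy chains MYH1, MYH2, MYH4 and MYH7 were not listed by symbol and were not examined. Of 8 fast-fibre and 9 slow-fibre genes, 0 had an unadjusted p under 0.05 in either direction by the quasi-likelihood test, and the list medians were 0.00 and -0.12. Slow-fibre levels varied widely within breeds, from 7.68 to 10.498 in PUL and from 5.69 to 10.39 in PL, with PL pig 18 lowest. The slow troponin gene TNNT1, for example, had 676, 1780.3 and 5579 CPM in PUL and 80.5, 1450.1 and 6117 in PL (log2 fold change -0.12, SE 0.59, adjusted p = 0.954). A difference in these genes was not detectable against this spread. Without PUL pigs 1 to 5 the slow-fibre median was 1.34, with 9 of 9 values above 0 and 1 gene higher in PL at an unadjusted p under 0.05. The fast-fibre median was -0.29 in that fit, with 1 gene higher in PUL and 0 of 8 values above 0.

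Single genes of the Z-disc, calcium and glycogen systems had small p. DES (desmin, the filament that links Z-discs) stood at 5554, 6680.1 and 13062 CPM in PUL and 2590.4, 4233 and 8216 in PL, a log2 fold change of -0.70 (SE 0.24, adjusted p = 0.302), and KLHL40, which stabilises thin filament proteins, at 43.4, 60.5 and 82.1 in PUL and 25.1, 36.7 and 60.9 in PL (log2 fold change -0.65, SE 0.19, adjusted p = 0.222). The cardiac actin ACTC1, expressed in developing muscle, ran the other way (0.88), with PUL pig 2 as the highest of all pigs and a value of 1.52 without it, as did the methyltransferase SMYD1 (0.70). STIM1, the calcium sensor of the store, was -0.49 (SE 0.17, adjusted p = 0.292), and CAMK2D, a calcium-dependent kinase, 0.59 (SE 0.22, adjusted p = 0.325). Without PUL pigs 1 to 5, DES was -0.43, KLHL40 -0.37, SMYD1 0.26 and CAMK2D 0.90, and 0 of 26 genes of the Z-disc, M-band and titin filament were higher in PUL and 6 in PL (backgrounds 6.45% and 7.63%), against 2 in each direction with all pigs. In glycolysis and glycogen metabolism, 2 of 37 genes were higher in each breed: in PL the enolase ENO1 (17.8, 21.99 and 46.6 CPM in PUL and 33.2, 45.9 and 93.3 in PL, log2 fold change 0.85, SE 0.25, adjusted p = 0.2204) and the liver-type phosphorylase PYGL (0.58), and in PUL the muscle phosphorylase kinase PHKG1 (236, 491 and 624 CPM in PUL and 195, 303 and 507 in PL, log2 fold change -0.52, SE 0.22, adjusted p = 0.384) and PFKL (-0.37). These shares (5.41% in each direction) were near the background. The fit without PUL pigs 1 to 5 had 6 of 37 higher in PUL and 2 in PL (backgrounds 6.45% and 7.63%), with PHKG1 at -0.86, PFKL at -0.71 and PYGL at 0.21.

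Extracellular matrix genes were higher in PL, but the difference followed PUL pigs 1 to 5. Of 14 fibrillar and associated collagens 6 were higher in PL at an unadjusted p under 0.05 and 0 in PUL, with a median of 1.04. COL1A2, a chain of the main fibril collagen, stood at 32.7, 242 and 713 CPM in PUL and 264, 795 and 1339 in PL, a log2 fold change of 1.15 (SE 0.48, adjusted p = 0.376), and COL5A2, which sets fibril width, at 3.93, 19.02 and 29.2 in PUL and 21.1, 33.4 and 53.4 in PL (log2 fold change 1.03, SE 0.34, adjusted p = 0.283). PUL pigs 13, 16 and 17 lay between 406 and 713 CPM of COL1A2, within the PL range, and PUL pigs 1 to 5 between 32.7 and 285. Without pigs 1 to 5 the list median was 0.06 with 1 of 15 genes under 0.05 in each direction (backgrounds 6.45% and 7.63%), and the COL1A2 value 0.29. COL12A1, a collagen on the fibril surface, had 1.47 (SE 0.56, adjusted p = 0.344), and COL8A1 and COL14A1 had 1.15 and 1.05. In the fit without pigs 1 to 5, COL5A2 was 0.40, COL12A1 0.80 and COL14A1 0.34. COL11A1, a minor fibril collagen, had a value of 1.75 without these pigs, beside 1.76 with them.

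Matrix proteoglycans and glycoproteins showed the same order, with 8 of 36 (22.2%) higher in PL and 0 in PUL and a median of 0.53, which was 0.17 without PUL pigs 1 to 5, with 3 of 37 higher in PL and 2 in PUL (backgrounds 7.63% and 6.45%). THBS1, a matricellular protein, stood at 5.89, 11.1 and 21.4 CPM in PUL and 5.64, 24.3 and 102 in PL (log2 fold change 1.43, SE 0.45, adjusted p = 0.255), with values of 0.85 without PL pig 8 and 1.98 without PUL pigs 1 to 5. ASPN, a small proteoglycan that binds collagen, gave 2.37, 9.601 and 20.1 CPM in PUL and 5.899, 26.6 and 45.1 in PL (log2 fold change 1.28, SE 0.43, adjusted p = 0.283), and CTHRC1, secreted by activated fibroblasts, 0.544, 1.52 and 5.96 in PUL and 0.5205, 4.74 and 13.9 in PL (log2 fold change 1.54, SE 0.54, adjusted p = 0.303). The other members were VCAN (1.63), fibrillin FBN1 (1.85), POSTN (1.49), LUM (1.09) and SRPX (0.92). In the fit without PUL pigs 1 to 5, ASPN was 0.71, CTHRC1 0.76, FBN1 1.07, POSTN 0.28, LUM 0.61 and SRPX 0.33. FBN1 was 0.90 without PL pig 8 and LUM 0.71 without PL pig 12. The same list held 12 of 36 genes higher in PL in LD, with a median of 0.68. The summed CPM of the 3 fibroblast markers in the table moved with these lists, running from 69.7 to 744 in PUL pigs 1 to 5, from 1281 to 1365 in PUL pigs 13, 16 and 17 and from 683 to 3622 in PL, and the part of fibroblast number in the matrix difference was not tested.

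Genes of matrix turnover and cell contacts were also mostly higher in PL. Of 31 matrix proteases and inhibitors, 5 were higher in PL and 0 in PUL, led by ADAMTS8, a protease that cuts proteoglycans (0.108, 2.98 and 5.86 CPM in PUL, 0.6201, 3.64 and 101 in PL, log2 fold change 2.79, SE 0.95, adjusted p = 0.291). PL pig 14 alone reached 101 CPM of it, and without that pig the value was 1.01. FAP, a protease of activated fibroblasts (0.96), SERPINE2 (0.86), which inhibits plasminogen activators, and ADAMTS20 (1.17) were also among the 5. Without PUL pigs 1 to 5 the count was 3 of 34, with 3 in PUL (backgrounds 7.63% and 6.45%), FAP was 0.54 and ADAMTS20 3.14. The count in PL was also 3 without PUL pig 4 (background 4.01%), PUL pig 16 (4.78%) or PL pig 15 (5.34%). Among 29 cadherins and adhesion genes, which the filter left of 54 entries, 6 (20.7%) were higher in PL, and 2 of 32 without PUL pigs 1 to 5 (background 7.63%). PCDH17, a protocadherin, stood at 1.56, 3.85 and 4.72 CPM in PUL and 4.51, 8.04 and 16.6 in PL (log2 fold change 1.28, SE 0.27, adjusted p = 0.155), with all PL pigs but pig 14 above the highest PUL pig, and CDH13, a cadherin without a membrane-spanning part, at 27.8, 34.6 and 44.7 in PUL and 34.95, 45.7 and 64.7 in PL (log2 fold change 0.50, SE 0.15, adjusted p = 0.219). NCAM1, found on satellite cells and at nerve endings, gave 2.74, 3.399 and 4.95 CPM in PUL and 3.64, 4.84 and 7.21 in PL (log2 fold change 0.59, SE 0.18, adjusted p = 0.241), and FAT1, MCAM and CDH11 had 0.70, 0.49 and 1.54. For CDH11, PL pig 8 held 90.0 CPM and the value without it was 0.85. In basement membranes and integrins, 3 of 35 were higher in PL (ITGB3, 1.44; LAMA4, 0.67; ITGA2, 0.60), and ITGB3 was 0.15 without PL pig 8, which held 302 CPM. LAMA4 was 0.35 without PUL pigs 1 to 5. The count of 3 became 9 of 35 without PUL pig 5 (background 8.95%), 6 without pig 1 (6.67%) and 5 without PL pig 14 (7.48%) or PL pig 18 (5.8%). On the PUL side stood SGCA, the sarcoglycan that ties the fibre to its basement membrane (158, 177 and 247 CPM in PUL, 122, 138 and 209 in PL, log2 fold change -0.33, SE 0.13, adjusted p = 0.338), at -0.53 without PUL pigs 1 to 5.

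Of 60 actin regulators, 9 (15%) were higher in PL and 3 in PUL, and 49 of 60 values were above 0. TPM4, the tropomyosin of non-muscle cells, stood at 7.32, 12.1 and 28.9 CPM in PUL and 7.22, 28.6 and 37.8 in PL (log2 fold change 0.97, SE 0.32, adjusted p = 0.272), SEPTIN7 at 38.5, 58.2 and 82.7 in PUL and 53.3, 80.6 and 106 in PL (log2 fold change 0.46, SE 0.18, adjusted p = 0.347). ANLN, FSCN1, PLS3, ACTR3, WASL, PAK2 and TMSB10, which bundle, branch or hold actin, had values from 0.32 to 0.96. LIMK1 (-1.25), which halts the turnover of actin filaments through cofilin, SEPTIN6 (-0.86) and CORO6 (-0.53) were higher in PUL, and without PL pig 7 that count was 5 (background 5.33%). The fit without PUL pigs 1 to 5 gave 6 of 61 higher in PL (background 7.63%), with FSCN1 at 0.39, TMSB10 at 0.41, PAK2 at 1.42 and CORO6 at -0.20. As a list level, 6 of 8 PL pigs exceeded the highest PUL pig. Of 38 Wnt and Hippo genes, 6 were higher in PL, among them the Wnt antagonists SFRP2 (1.44) and FRZB (34, 111 and 158 CPM in PUL, 113, 183 and 241 in PL, log2 fold change 0.76, SE 0.23, adjusted p = 0.241), the Hippo regulators FRMD6 (log2 fold change 1.05, SE 0.29, adjusted p = 0.212) and MOB1B (0.80) and the Hippo target factor WWTR1 (0.67). TEAD3, a partner of that factor, was -0.52 with all pigs and -0.09 without PUL pigs 1 to 5, and MOB1B was 0.43 without PL pig 8. The PPP1R11 entry in this list (ENSSSCG00000028347), an inhibitor of protein phosphatase 1, had 0.558, 1.71 and 4.86 CPM in PUL and 2.96, 15.4 and 20.97 in PL (log2 fold change 2.61, SE 0.46, adjusted p = 0.119), but 2 entries bear that name, between which reads may have been divided.

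Signalling and transcription lists held few genes of small p with all 16 libraries, and their counts depended on the pigs included. In the insulin and mTOR list (39 genes) IGF1, a growth factor, was higher in PL (0.863, 1.18 and 2.96 CPM in PUL, 1.13, 2.27 and 4.62 in PL, log2 fold change 0.76, SE 0.34, adjusted p = 0.399), and MLST8 (log2 fold change -0.54, SE 0.21, adjusted p = 0.353) and RPTOR (log2 fold change -0.47, SE 0.19, adjusted p = 0.375), subunits of mTOR complexes, were higher in PUL, and 7 genes were so without PL pig 14 (background 9.42%) and 4 without PL pig 18 (6.86%). MLST8 was -0.99 without PUL pigs 1 to 5. TGFB2 (log2 fold change 0.56, SE 0.19, adjusted p = 0.283) and the receptor BMPR1A (log2 fold change 0.44, SE 0.16, adjusted p = 0.326) were higher in PL, 2 of 32 genes of their list, whose median was 0.22. The count of that list was 7 of 34 without PL pig 14 (background 7.48%), 5 of 34 without PUL pig 5 (8.95%), 4 of 33 without PL pig 8 (4.96%) and 7 of 34 without PUL pigs 1 to 5 (7.63%). NR4A2, an orphan nuclear receptor of the immediate early response, stood at 1.96, 9.87 and 24.4 CPM in PUL and 11.6, 37.7 and 63.2 in PL, a log2 fold change of 1.68 (SE 0.48, adjusted p = 0.219) that was 1.77 in LD. The inhibitor NFKBIA had 0.35, the cyclin CCNG2 0.47 and the glucocorticoid receptor NR3C1 0.52. In the fit without PUL pigs 1 to 5, 6 of 22 immediate early genes were higher in PL (background 7.63%) against 2 with all pigs, NFKBIA was 0.56 and CCNG2 0.84. Of 16 positional transcription factors, HOXD1 (log2 fold change -1.03, SE 0.33, adjusted p = 0.268) and HOXD9 (log2 fold change -0.49, SE 0.22, adjusted p = 0.397) were higher in PUL. APAF1, which assembles the caspase-activating apoptosome, was listed at 0, 0.655 and 2.21 CPM in PUL and 0, 2.21 and 8.87 in PL (log2 fold change 2.197, SE 0.71, adjusted p = 0.2703), 4 PL pigs exceeded the highest PUL pig, and the value was 3.39 without PUL pigs 1 to 5. In antioxidant and metal handling, GPX8 (0.58) and MSRA (0.33) were higher in PL and GSTZ1 (-0.30), HMOX2 (-0.45) and TXN2 (-0.25) in PUL, 5 of 35 genes in all, and 5 were higher in PL without PUL pig 5 (background 8.95%). GPX8 and HMOX2 were 0.33 and -0.20 without PUL pigs 1 to 5, and HMOX2 -0.27 without pig 2.

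Single PUL pigs held much of the difference in the interferon and liver-type lists. Of 38 interferon-stimulated genes, 8 (21.1%) were higher in PUL and 0 in PL, with a median of -0.56. MX1, an antiviral GTPase, held 105 CPM in PUL pig 5 and at most 6.01 in the other PUL pigs, against 2.50 to 4.10 in PL, and its log2 fold change went from -2.31 to -0.09 without that pig. HERC5, a ligase for the ubiquitin-like ISG15, went from -2.12 to -0.32. The list median without PUL pig 5 was 0.13 with 2 genes higher in PUL and 1 in PL of 37 (backgrounds 8.14% and 8.95%). Without PUL pig 3, in contrast, 15 of 38 were higher in PUL (background 5.13%), and without PL pig 10 or PL pig 14 the count was 5 (5.19% and 9.42%). IRF7, a transcription factor of the response, went from -1.46 to -0.73 without PUL pig 5, and OAS2, a sensor enzyme of double-stranded RNA, from -1.75 to -1.16. Of 21 tested hepatocyte and plasma protein genes 8 were higher in PUL, and the 7 beside ALB were HP, F2, ASS1, APOM, RBP4, C8G and ITIH3. Their counts without PUL pigs 1 to 5 were 4 higher in PUL and 1 in PL of 23 (backgrounds 6.45% and 7.63%). In that fit HP was -0.59, APOM -0.62, C8G -0.26 and ITIH3 -1.12, against -3.49, -2.09, -1.78 and -1.71 with all pigs, and without pig 5 alone C8G and ITIH3 were -0.97 and -1.02. The fall without PUL pigs 1 to 5 was set in advance, since those pigs were chosen for liver-type transcripts. The summed CPM of 2 red blood cell markers ran from 12.9 to 718 in PUL, with pig 5 highest, and from 166 to 678 in PL, and the beta globin HBB had a log2 fold change of 1.298 (SE 0.65, adjusted p = 0.444). Leukocyte markers gave 1 gene higher in PUL (IGLC, an immunoglobulin chain, -4.23, with 203 CPM in PUL pig 1 and -2.02 without it, or -0.71 without PUL pigs 1 to 5) and 2 in PL (KIT, 0.93, and ITGAL, 1.16, or 0.26 without PL pig 8). Without PUL pig 1 the count in PL was 6 of 26 (background 6.67%). The endothelial list had 1 of 22 genes under 0.05, EGFL7 (-0.44, or -0.28 without PUL pig 17), and the summed endothelial marker in the table ran from 58.3 to 102 CPM in PUL and from 67.4 to 159 in PL. Smooth muscle markers (2 genes) ran from 28.7 to 92.4 CPM in PUL and from 44.3 to 126 in PL.

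The remaining lists held between 1 and 7 genes under 0.05. LOXL4, a crosslinking enzyme, was higher in PL as 1 of 18 genes of collagen processing (0.88), and MATN2, a matrix adaptor, as 1 of 6 tendon and cartilage genes (0.94). Of 16 fibroblast genes 3 were higher in PL, SFRP2, PDGFRL (0.97) and the homeobox gene MEOX2 (0.70), and PDGFRL was 0.61 without PUL pigs 1 to 5. CNN1, a calponin of smooth muscle, was higher in PL (0.70), as 1 of 17 smooth muscle and pericyte genes, next to MCAM, and 4 were so without PUL pig 5 (background 8.95%) or PUL pig 17 (4.65%). Among 11 nerve and neuromuscular junction genes UCHL1 (-1.296) and the myelin enzyme CNP (-0.45) were higher in PUL and NCAM1 in PL, and the list median of -0.13 became 0.01 with library size alone and 0.41 without PUL pigs 1 to 5. FCGRT, the neonatal Fc receptor, was higher in PUL (-0.25), as 1 of 15 antigen presentation genes. EIF2AK3, a sensor of unfolded proteins, was the only 1 of 15 genes of its response under 0.05 (1.19), and without PL pig 8, which held 103 CPM, its value was 0.21. The anion exchanger SLC4A1 of red blood cells (1.81) likewise rested on PL pig 8 with 46.1 CPM (0.09 without it). Of 35 genes of xenobiotic, retinoid and steroid metabolism, 4 were higher in PUL, PON3, RBP4, the oxidase FMO5 (-1.76, and -0.20 without PUL pigs 1 to 5) and the epoxide hydrolase EPHX2 (-0.63, and -0.41 without PUL pig 1). Higher in PL were NR3C1, the oestrogen receptor ESR1 (0.65) and CYP39A1 (0.75), which acts on oxysterols, and this count of 3 was 6 of 36 without PL pig 14 (background 7.48%) and 5 of 36 without PUL pig 1 (6.67%).

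The genes called by both DESeq2 and the exact test added some members to these groups, and they were chosen after their values were seen. On the PUL side, PEX11G, which divides peroxisomes, stood at 3.04, 5.59 and 6.72 CPM in PUL and 1.71, 2.36 and 3.16 in PL (log2 fold change -1.06, SE 0.22, adjusted p = 0.155). EXOC7, a subunit of the exocyst that tethers vesicles, stood at 16.3, 29.3 and 41.2 CPM in PUL and 12.5, 15.3 and 20.7 in PL (log2 fold change -0.84, SE 0.18, adjusted p = 0.155), and RNPEPL1, an aminopeptidase, at 28.5, 45.7 and 72.7 in PUL and 19.5, 30.5 and 35.7 in PL (log2 fold change -0.78, SE 0.19, adjusted p = 0.204). In each, 6 or 7 PUL pigs lay beyond the PL range. On the PL side, HECTD2, a ubiquitin ligase, stood at 0.558, 1.55 and 2.54 CPM in PUL and 2.43, 3.73 and 4.85 in PL (log2 fold change 1.31, SE 0.30, adjusted p = 0.195), LXN, a carboxypeptidase inhibitor, at 2.98, 4.88 and 9.002 in PUL and 5.64, 13.98 and 15.4 in PL (log2 fold change 1.11, SE 0.28, adjusted p = 0.204), and the membrane protein TMEM106C at 1.91, 3.57 and 6.21 in PUL and 4.28, 7.23 and 11.95 in PL (log2 fold change 0.97, SE 0.25, adjusted p = 0.204). Their values in LD were 0.64, 1.38 and 1.33, and HECTD2 was 0.76 without PUL pigs 1 to 5. Of the cell cycle genes PBK, UHRF1, DLGAP5, CHEK1 and CCNB1 were among the 23 genes both tools called higher in PL, next to ALDH1L2 and PSAT1.

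**Figure D5:**
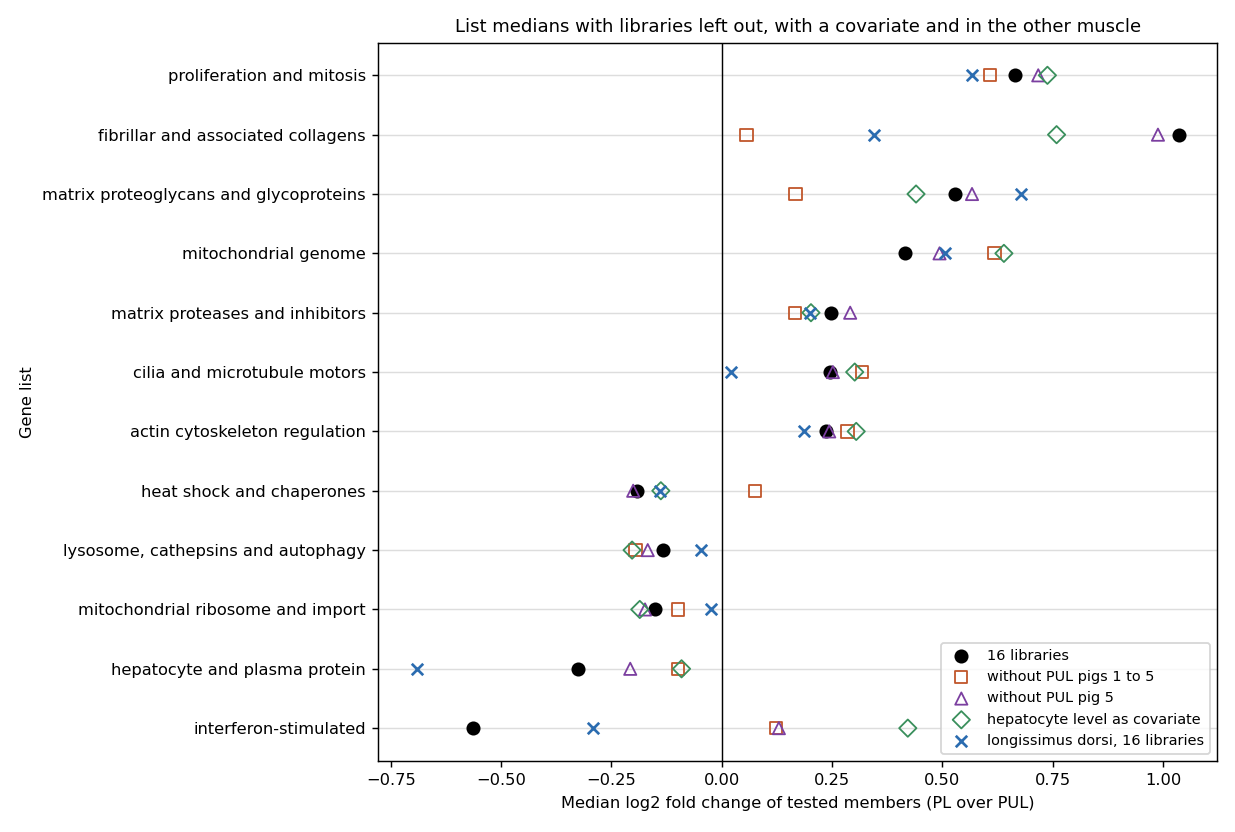
Median log2 fold change (PL over PUL, horizontal axis) of the tested members of 12 gene lists with all 16 S libraries, without PUL pigs 1 to 5, without PUL pig 5, with the hepatocyte level as a covariate, and in LD. Proliferation stayed between 0.57 and 0.74, collagens went from 1.04 to 0.06 without PUL pigs 1 to 5, and the interferon list, below 0 with all 16 libraries, stood at 0.13 without PUL pig 5, 0.12 without PUL pigs 1 to 5 and 0.42 with the covariate.

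The breed difference in S was set beside that in LD of the same pigs. In LD, 0 of 10792 genes passed the adjusted threshold by the quasi-likelihood test, and 379 (3.51%) were higher in PUL and 393 (3.64%) higher in PL at an unadjusted p under 0.05. In the test of the breed-by-muscle interaction over all 32 libraries, 0 of 11563 genes reached an adjusted p of 0.05 and 294 (2.54%) had an unadjusted p under 0.05. The 3 genes of smallest p among those with a symbol were CYRIA, CIB2 and CEP250. CYRIA, a regulator of Rac, had log2 fold changes of -0.46 in S (-0.20 without PUL pigs 1 to 5) and 0.63 in LD. CIB2, a calcium-binding protein, had 0.13 and 1.08 (-0.03 in S without PL pig 14). The centrosomal CEP250 had too few counts to be tested in S (0 to 1.28 CPM in PUL and 0 to 2.96 in PL). No list can therefore be called particular to S. Of the 23 proliferation genes higher in PL in S, 21 were tested in LD and all 21 had the same sign there, 11 with an unadjusted p under 0.05. Of the 14 genes of mitochondrial translation and import higher in PUL in S, 11 had the same sign in LD, 1 with an unadjusted p under 0.05.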

How the data were processed

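The deposited gene table held estimated counts per gene. According to the study's methods and the submitters' processing notes, the authors made it from Illumina reads (CASAVA 1.8.2, FastQC, Flexbar) that were mapped to the pig genome Sscrofa10.2 with Bowtie2 and counted with RSEM, which divides reads with several matches among genes. Isoform tables were not used. Of 25322 gene IDs, 11810 had a symbol. The estimated counts were rounded, scaled by TMM, filtered with filterByExpr by breed and tested with edgeR 4.0.16 (quasi-likelihood test, Benjamini-Hochberg adjustment, adjusted p of at most 0.05 and a fold change of at least 1.3) in R 4.3.3 with limma 3.58.1. DESeq2 1.42.0 and edgeR's exact test were alternatives, as were other scalings and filters, both muscles in 1 fit, a block by replicate number, a hepatocyte covariate over 63 genes, and fits without single pigs or without PUL pigs 1 to 5. The fit of both muscles had no pig term. The interaction was fitted over 32 libraries with pig as a block.

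Genes were named by rule among those with a symbol. The rule took the 12 of smallest p per direction that the study does not name. It also took up to 4 of smallest p under 0.05 per list, the genes without overlap, and 3 for the interaction. For the genes without overlap, entries without a symbol are given by ID. Others are said to have been chosen after their values were seen. A few genes that met the rule are not reported here. The members and the 49 textbook lists were chosen with earlier results of these data known, no list was tested as a set, and list levels are means of log2(CPM + 0.5). On simulated counts for S (10901 genes, 200 changed) the quasi-likelihood test recovered 89% of 4-fold and 48% of 2-fold changes with 8 false calls of 145. The exact test made 15 false calls of 164 and DESeq2 22 of 174. Ham depth was 8821273 to 24761853 counts, which limits precision most for genes under 1 CPM. Each sample is 1 pig, so p-values measure the spread between pigs of these farms.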

Additional observations from a re-analysis of the deposited data

Results flagged for a closer look

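Values far from the other 7 pigs of the same breed (Dixon's test for a single outlying value) were found for 22 named genes and 7 list levels. Chance gives such a value in about 1 in 20 groups tested, and no explanation was tested.

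PL pig 8, the shallowest library, held the highest CPM of its breed for CPT1A (231), ITGB3 (302.0), CDH11 (90.0013), NOTCH2 (5.77), SLC4A1 (46.1), ITGAL (12.4) and EIF2AK3 (103), genes of unlike function. PL pig 14 was the lowest PL pig for CTHRC1 (0.520 CPM) and SFRP2 (2.08 CPM) and the highest for FCGRT (197 CPM). It had the lowest PL level, as mean log2(CPM + 0.5), of the mitochondrial genome (6.94), proliferation (1.1097) and the unfolded protein response (4.045), and the highest of DNA repair (2.58) and cilia genes (2.97).

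PUL pig 5 held the highest CPM of its breed for IRF7 (25.5), HERC5 (48.5), MX1 (105) and NCAM1 (4.95), and its level of interferon-stimulated genes was 4.70 against 1.87 to 2.56 in the other PUL pigs. PUL pig 2 was highest for ACTC1 (75.0 CPM) and lowest for PCDH17 (1.56), MATN2 (0.430) and FRZB (34.0003). PUL pig 1 was lowest for PNPLA2 (10.4 CPM) and highest for CEP250 (1.28), and PUL pig 4 lowest for FANCM (0.0698). PL pig 18 was lowest for TPM4 (7.22), and PL pig 7 had the lowest PL level of hepatocyte and plasma protein genes (1.81).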

How the results depend on the processing

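The count of genes called by the quasi-likelihood test (0) was 1 with RLE factors, 4 with no filter, 9 with the hepatocyte covariate, 70 with both muscles in 1 fit and 1 without PUL pigs 1 to 5, while DESeq2 called 103, the exact test 56 and both 51. The fit of both muscles had no pig term. It took the S and LD libraries of a pig as independent, so its p-values are too small for a breed contrast to be read from its calls. The quasi-likelihood count stayed 0 with library size alone, with a minimum of 10 counts per library, with no minimum fold change and with robust fitting. Leaving out 1 pig at a time gave 0 to 1, the call appearing without PUL pig 3 or PL pig 14. The 677 genes higher in PUL at an unadjusted p under 0.05 became 433 with library size alone and 1234 with no filter, and ran from 503 to 1018 with 1 pig left out, the highest without PL pig 14. The 575 genes higher in PL became 1015 with no filter, 1173 with the covariate and 867 without PUL pigs 1 to 5, and ran from 432 to 958, the highest without PUL pig 5. The cause was not tested. The interaction count was 0 in all alternatives run. Of 156 named genes DESeq2 brought 49 past the threshold, the exact test 30 and both muscles in 1 fit 14. Direction reversed for ALB (1.97 without PUL pigs 1 to 5), HERC5 (0.0559) and MX1 (0.11) with the covariate, and CIB2, which ran from -0.0286 to 0.24 with 1 pig left out, at -9.59e-05 without PL pig 7 and -0.0286 without PL pig 14. List medians moved beyond the spread in 21 cases, 14 of them without PUL pigs 1 to 5, among them immediate early genes (0.82), red blood cell genes (2.34), collagen processing (-0.13) and the circadian clock (0.34).

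As to pairing by replicate number, same-numbered PUL and PL pigs had correlations of their deviations between -0.33 and 0.21, and 1 of 8 numbers matched best with itself, so the numbers were not taken to pair the pigs. With the replicate block 0 genes were called, 530 were higher in PUL and 494 in PL at an unadjusted p under 0.05. Without the pig block the interaction count was 0.

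Depth limits low genes most: PL pig 8 had 8821273 counts, and genes under 1 CPM, which include many of the cell cycle, rested on few reads.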
